A study of Mus musculus with 80 samples.

Results

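The genes described here carry the growth hormone signal of the liver from its receptor to its products. They are Ghr, Jak2, Stat5a, Stat5b, Socs2, Cish, Igf1, Igfals, Bcl6 and Cux2, the 10 rows among the 22103 gene rows of the deposited count table whose symbols are on a list of the pathway's main components. These genes, and the lists set beside them below, were chosen with earlier results of these data known. Their counts beside shares of all genes are therefore descriptions. All 10 passed the filter on low counts that left 15197 rows for testing. Growth hormone from the pituitary binds its receptor on hepatocytes, the receptor activates the kinase JAK2, and JAK2 phosphorylates the transcription factors STAT5A and STAT5B. STAT5 then turns on Igf1, whose product circulates and promotes growth, and also Socs2 and Cish, whose products damp the receptor's signal. The pattern of growth hormone release differs between the sexes in rodents, and liver genes such as Cux2 and Bcl6 differ between females and males with it.

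The mice were 20 Balb-C females aged 10 to 12 weeks, dosed by gavage on 7 days in a row with PFESA-BP2, a perfluoroalkyl ether sulfonic acid also called Nafion byproduct 2. Control mice received 0 mg/kg-day and the other 4 groups 0.03, 0.3, 3.0 or 6.0 mg/kg-day, and each group held 4 mice with 1 liver library per mouse. Which vehicle the controls had is unsettled, since their titles read DMSO and the design text gives deionized water. The labels give no allele or transgene for any group and no other agent.

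Total counts per library ranged from 13086755 to 21466978. In each of the 5 groups 1 library stood apart from the other 3 on the first component of the variation within groups, which held 42.7% of that variation. In these libraries (numbers 3, 11, 15, 19 and 23 of the deposited table) Ghr was the highest of 4 in 5 of 5 groups and Stat5a the lowest in 5 of 5. Each is the third by number in its group, and the labels give no batch. Fits with a term for these libraries, or without them, are therefore given beside the counts. The libraries were picked from the variation within groups of these same data, so p-values of those fits may be too small. Markers of hepatocytes, the cells that carry most of the liver's growth hormone receptor, were present in every group. Their summed level over 12 genes was 94066 to 125718 CPM at 6.0 mg/kg-day, against 152638 to 198988 CPM in controls. Most of these sums is albumin mRNA, since Alb alone averaged 73798 CPM at 6.0 mg/kg-day and 126657 CPM in controls. Of the 12 markers 7 fell at that dose and 5 did not pass, beside 11.2% lower and 11.2% higher of all genes tested. CPM is a gene's count relative to its scaled library total. In bulk tissue fewer cells of a type and less RNA per cell cannot be told apart.

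At 6.0 mg/kg-day 8 of the 10 genes fell against control, and at 3.0 mg/kg-day 4 fell. At 0.3 mg/kg-day 1 fell, namely Socs2. Falls and rises are those that passed edgeR's quasi-likelihood test at an adjusted p under 0.05. Among all genes tested, 11.2% fell and 11.2% rose at 6.0 mg/kg-day, 1.43% fell and 3.18% rose at 3.0 mg/kg-day, and 0.151% fell and 0.138% rose at 0.3 mg/kg-day. At 0.03 mg/kg-day 0 of the 10 genes passed edgeR's test, beside 0% lower and 0% higher of all genes. At that dose 2 of the 10 had an unadjusted p under 0.05, as did 565 of all genes, while DESeq2 passed 1 of the 10 and limma-voom 0. The median log2 change of the 10 genes was -0.01, -0.15, -0.58 and -0.98 at the 4 doses from low to high, beside -0.01, -0.02, -0.02 and -0.02 over all genes tested. The 4 dose groups share the same controls.

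The fit with a term for the 5 libraries apart had 0, 1, 5 and 10 of the 10 genes falling at the 4 doses from low to high, with 0.079%, 1.09%, 3.58% and 18.7% of all genes falling. Without these libraries the counts were 0, 1, 4 and 10, with 0.0132%, 0.601%, 1.66% and 16.7% of all genes. Over 7 alternative settings, these fits among them, 3 to 5 of the 10 genes passed at 3.0 and 6 to 10 at 6.0 mg/kg-day. Every treated library lay below every control library for 2, 3, 7 and 6 of the 10 genes at the 4 doses from low to high. Over all genes that was so for 1.44%, 2.97%, 4.95% and 8.86%.

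**Figure D1:**
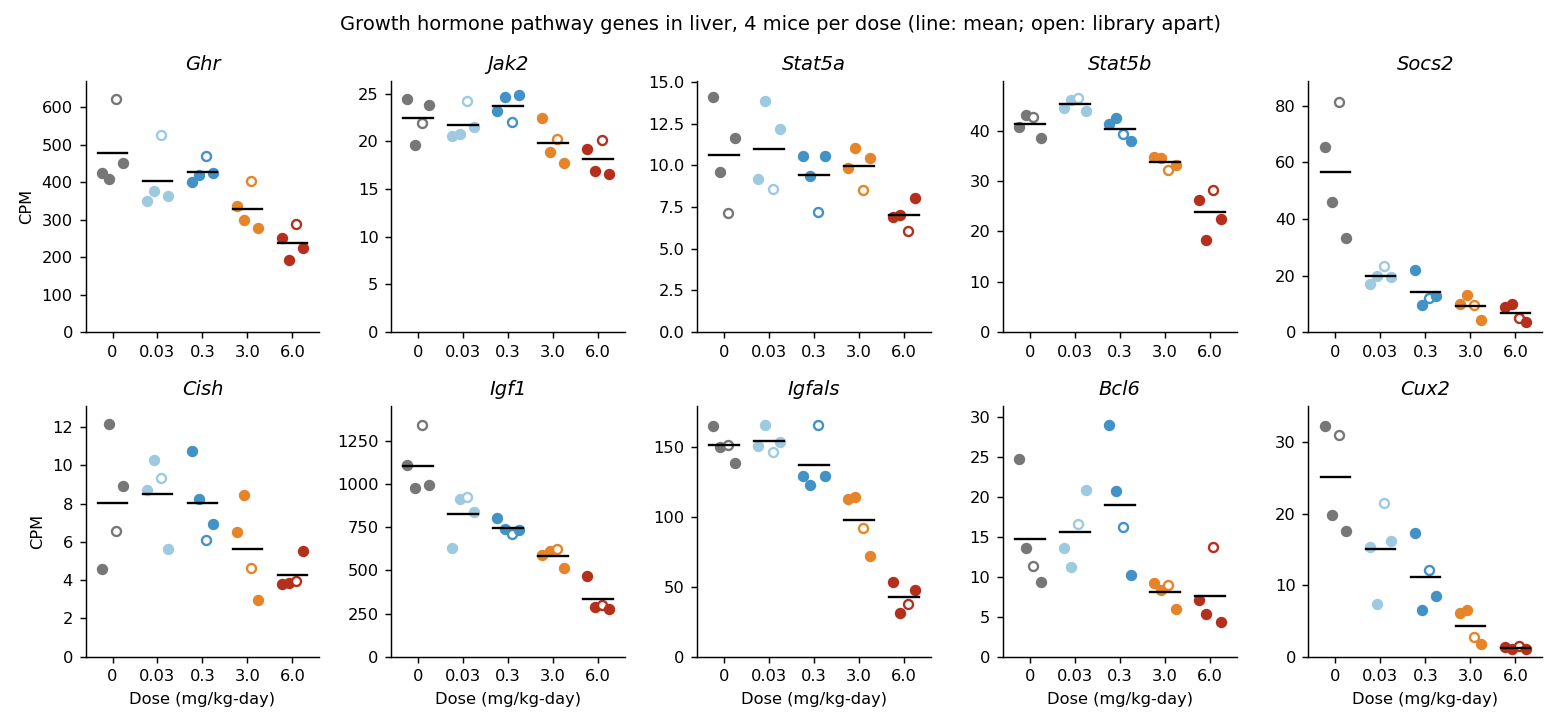
CPM of the 10 genes (vertical axes, from 0) in each of the 4 libraries per dose (horizontal axes, mg/kg-day), with a line at the group mean and open points for the libraries that stand apart. Socs2 is lower in all 16 treated libraries than in the lowest control, while Jak2 and Stat5a overlap between all groups and the controls.

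Ghr encodes the growth hormone receptor and lies at 15:3317760-3583492 on the minus strand (GRCm38, as are all gene positions here). It averaged 477 ± 98.9, 405 ± 81.7, 428 ± 29.0, 329 ± 55.4 and 239 ± 41.3 CPM in the 5 groups from control up to the highest dose (SD, n = 4 each). The 4 livers given 6.0 mg/kg-day had 251, 192, 290 and 224 CPM, against 426, 408, 623 and 451 CPM in control livers. All 4 treated values lay below all 4 controls, and the highest value of each group was the library apart. Ghr fell by 1.00 ± 0.167 on the log2 scale (SE) at 6.0 mg/kg-day, with an adjusted p of 0.000187 in edgeR's quasi-likelihood test. The 4 livers given 3.0 mg/kg-day had 336, 298, 404 and 278 CPM, again all below the lowest control. The log2 change there was -0.54 ± 0.166 with an adjusted p of 0.0767 in edgeR, so Ghr did not pass. It passed at 3.0 mg/kg-day when a term for the apart libraries was fitted (0.000666), without those libraries (0.0127), without library 19 alone (0.0391) and with DESeq2 (0.0362).

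Jak2, the kinase bound to the receptor (19:29251828-29313080, plus strand), had the smallest change of the 10 genes at 6.0 mg/kg-day. It had 19.2, 16.9, 20.2 and 16.5 CPM at that dose, against 24.4, 19.6, 21.9 and 23.9 CPM in controls. The ranges overlapped, and the log2 change of -0.30 had an adjusted p of 0.0516 in edgeR and a 95% interval of -0.53 to -0.07. At the 3 lower doses the intervals were -0.28 to 0.18, -0.15 to 0.31 and -0.41 to 0.05. Jak2 passed at 6.0 mg/kg-day with the term for the libraries apart (0.0209), without them (0.0276), with DESeq2 (0.0378), and without library 2 (0.0304) or library 23 (0.0243).

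Stat5a and Stat5b are neighbouring genes on chromosome 11, at 100859351-100885169 on the plus strand and 100780731-100850724 on the minus strand. Their products are closely related, and STAT5B is the more abundant form in liver. How reads were divided between such copies is a step not given in the sources used here, so the split of their counts is uncertain. Stat5b had 26.2, 18.3, 28.2 and 22.4 CPM at 6.0 mg/kg-day, 34.7, 34.5, 32.2 and 33.2 CPM at 3.0 mg/kg-day, and 40.6, 43.1, 42.8 and 38.5 CPM in controls. The 3 sets of values did not overlap, with the 6.0 mg/kg-day livers lowest and the controls highest. Stat5b fell by 0.80 ± 0.112 at 6.0 mg/kg-day (adjusted p = 2.68e-05, edgeR), and the change of -0.29 at 3.0 mg/kg-day did not pass (adjusted p = 0.179). At 0.03 mg/kg-day Stat5b had 44.6, 46.1, 46.5 and 43.9 CPM, all above the highest control, with a log2 change of 0.13 and an adjusted p of 1 in edgeR.

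Stat5a had 6.90, 7.01, 6.05 and 8.04 CPM at 6.0 mg/kg-day, against 14.1, 9.62, 7.15 and 11.7 CPM in controls. The ranges overlapped through the control library apart, which was the lowest control. Stat5a fell by 0.61 ± 0.193 (adjusted p = 0.0289, edgeR). It no longer passed without library 1 (0.117), 4 (0.0754), 21 (0.0641), 22 (0.0666) or 23 (0.0564), or with only both groups in the fit (0.101). Stat5a overlaps Stat3 on the opposite strand, whose mean count was 1519.9 against 176.0 for Stat5a, and whether counting used strand was among the details not given in the sources used here. Stat3 fell by 0.73 on the log2 scale at 6.0 mg/kg-day (adjusted p = 0.000368, edgeR), and its part in the Stat5a counts was not tested. The ratio of Stat5b to Stat5a in CPM was 3.46 ± 0.954 at 6.0 mg/kg-day and 4.17 ± 1.39 in controls (SD, n = 4 each), and the ranges overlapped.

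Socs2, a feedback gene, was the one of the 10 that fell at 0.3 mg/kg-day, the lowest dose with any fall among them. Its product is an inhibitor that binds the active receptor and limits growth, and mice without it grow large. Socs2 lies at 10:95385362-95417180 on the minus strand. Control livers had 65.3, 45.9, 81.4 and 33.4 CPM. Livers given 0.03 mg/kg-day had 16.8, 19.8, 23.3 and 19.4 CPM, and those given 0.3 mg/kg-day had 22.1, 9.53, 12.1 and 12.7 CPM. Already at the lowest dose every treated liver lay below every control. At 3.0 mg/kg-day the values were 9.87, 13.1, 9.47 and 4.198 CPM, and at 6.0 mg/kg-day they were 8.95, 9.88, 4.90 and 3.69 CPM. The lowest treated library still held 67 Socs2 counts, and the mean at 6.0 mg/kg-day was 12.1% of the control mean.

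The log2 changes of Socs2 against control were -1.51 ± 0.34, -2.00 ± 0.346, -2.62 ± 0.357 and -3.04 ± 0.365 (SE) at the 4 doses from low to high. Their adjusted p values in edgeR's quasi-likelihood test were 0.388, 0.0142, 7.79e-05 and 4.23e-06. The change at 0.03 mg/kg-day thus did not pass after adjustment over all genes, although its unadjusted p was 0.000255 and DESeq2 gave an adjusted p of 0.0234. At 0.3 mg/kg-day Socs2 no longer passed without library 1 (0.0514), 14 (0.0677), 15 (0.0809) or 16 (0.0856). Between neighbouring doses, from low to high, the log2 changes of Socs2 were -0.49, -0.62 and -0.42, and they did not pass (edgeR adjusted p = 1, 0.388 and 0.635).

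Cish, at 9:107296026-107302784 on the plus strand, encodes a related inhibitor that STAT5 induces in many blood and liver cells. It was the least abundant of the 10 genes per kilobase of exon in controls, and its values spread widely. It had 3.79, 3.83, 3.98 and 5.51 CPM at 6.0 mg/kg-day, against 4.59, 12.2, 6.56 and 8.91 CPM in controls. The ranges overlapped, and the log2 change of -0.91 ± 0.307 had an adjusted p of 0.0379 in edgeR. Cish no longer passed with limma-voom (0.0719), with only both groups in the fit (0.0642), or without library 2 (0.153), 4 (0.0865), 21 (0.0919), 22 (0.104) or 23 (0.0576). At 0.03 and 0.3 mg/kg-day, where Socs2 stood at 35.1% and 24.99% of its control mean, Cish stood at 105.5% and 99.5%. The 95% intervals of the Cish change at those doses were -0.54 to 0.70 and -0.63 to 0.61.

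STAT5 dimers bind the palindrome TTCNNNGAA, which reads the same on both strands. Of the 10 genes, 9 matched the RefSeq promoter table for GRCm38.p6, and Socs2 had no window there. The 16 windows of the 9 run from 250 bases before to 50 bases after a transcript start. The window of Cish is shown because it holds a pair of such palindromes right after the start, beginning at bases 1 and 12 of the transcript. It covers 9:107296409-107296708 on the plus strand, and capitals mark the palindromes.
Cish: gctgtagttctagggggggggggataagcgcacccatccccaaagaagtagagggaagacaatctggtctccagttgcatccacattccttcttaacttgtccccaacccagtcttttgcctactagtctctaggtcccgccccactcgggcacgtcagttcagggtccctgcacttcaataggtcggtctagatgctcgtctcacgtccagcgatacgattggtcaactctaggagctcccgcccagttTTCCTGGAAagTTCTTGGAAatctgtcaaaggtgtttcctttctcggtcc
Among 32851 windows of all genes, 2726 (8.30%) held 1 or more such palindromes and 150 (0.457%) held 2 or more. A match in these letters is a description and not a measured binding site.

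Igf1 encodes insulin-like growth factor 1, of which the liver is the main source in blood, and lies at 10:87858265-87937042 on the plus strand. It was the most abundant of the 10 genes per kilobase in every group. Control livers had 1111, 974.5, 1343 and 992.8 CPM. Livers given 0.03 mg/kg-day had 631, 914, 925 and 839 CPM, and those given 0.3 mg/kg-day had 800.4, 740.5, 709 and 730.4 CPM. All 8 of these treated livers lay below the lowest control. The values were 588, 613, 623 and 514 CPM at 3.0 mg/kg-day, and 466, 289.5, 297 and 274 CPM at 6.0 mg/kg-day. The group means stood at 74.9%, 67.4%, 52.9% and 30.0% of the control mean from the lowest dose to the highest.

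The log2 changes of Igf1 against control were -0.42 ± 0.163, -0.57 ± 0.163, -0.92 ± 0.164 and -1.74 ± 0.167 (SE) from low to high dose. The adjusted p values in edgeR were 1, 0.18, 0.00135 and 2.74e-07, so Igf1 fell at both higher doses. Its 95% intervals at 0.03 and 0.3 mg/kg-day were -0.76 to -0.08 and -0.91 to -0.23. An antisense gene, Igf1os, overlaps Igf1, but its mean count was 14.2 against 13061.2 for Igf1. Library 21 held the highest Igf1 value at 6.0 mg/kg-day, yet it still lay below all livers given 3.0 mg/kg-day.

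Igfals encodes the acid-labile subunit, a liver protein that keeps IGF1 in a long-lived complex in blood, and lies at 17:24865997-24882010 on the plus strand. Livers given 0.03 mg/kg-day had 151, 165, 146 and 154 CPM, and those given 0.3 mg/kg-day had 129, 122, 166 and 129 CPM, against 165, 150.1, 151 and 138 CPM in controls. Both of these groups overlapped the controls. At 3.0 mg/kg-day the values were 112, 114, 92.1 and 72.3 CPM, and at 6.0 mg/kg-day 53.4, 31.0, 37.8 and 47.4 CPM, with no overlap between these groups or with the controls. Igfals fell by 0.63 ± 0.159 at 3.0 mg/kg-day (adjusted p = 0.0225, edgeR) and by 1.83 ± 0.164 at 6.0 mg/kg-day (adjusted p = 1.13e-07). The call at 3.0 mg/kg-day was lost without library 1 (0.0738), 2 (0.0503), 19 (0.0657) or 20 (0.111), without all 5 libraries apart (0.0567), and with only the groups of that comparison in the fit (0.0593).

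The ratio of Igf1 to Igfals in CPM was 7.32 ± 1.08, 5.37 ± 0.88, 5.54 ± 0.876, 6.12 ± 0.954 and 7.92 ± 1.56 in the 5 groups from control up to the highest dose (SD, n = 4 each). It was lowest at the low doses, where Igf1 alone of the pair lay below the controls, and at 6.0 mg/kg-day its range of 5.77 to 9.34 took in the control range of 6.49 to 8.88. The ratio of Igf1 to Ghr was 1.403 ± 0.363 at 6.0 mg/kg-day and 2.34 ± 0.206 in controls, and the ranges of 1.03 to 1.86 and 2.16 to 2.61 did not overlap. These ratios are descriptions and were not tested.

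The window at the second of 3 listed Igfals starts is shown because it holds a STAT5 palindrome close to the start, beginning at position -58 from it. It covers 17:24877981-24878280 on the plus strand, with the palindrome in capitals.
Igfals: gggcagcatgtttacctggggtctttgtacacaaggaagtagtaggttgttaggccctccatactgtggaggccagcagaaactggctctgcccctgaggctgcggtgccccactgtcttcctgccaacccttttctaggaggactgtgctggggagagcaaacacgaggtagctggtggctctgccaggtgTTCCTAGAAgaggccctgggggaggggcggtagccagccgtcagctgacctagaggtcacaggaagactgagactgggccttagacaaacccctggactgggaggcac
The first Igfals window holds 1 palindrome at position -236 from its start, and the third holds 0. The single Igf1 window, at 10:87860861-87861160, holds 0, which says only that these letters are not in that stretch.

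**Figure D2:**
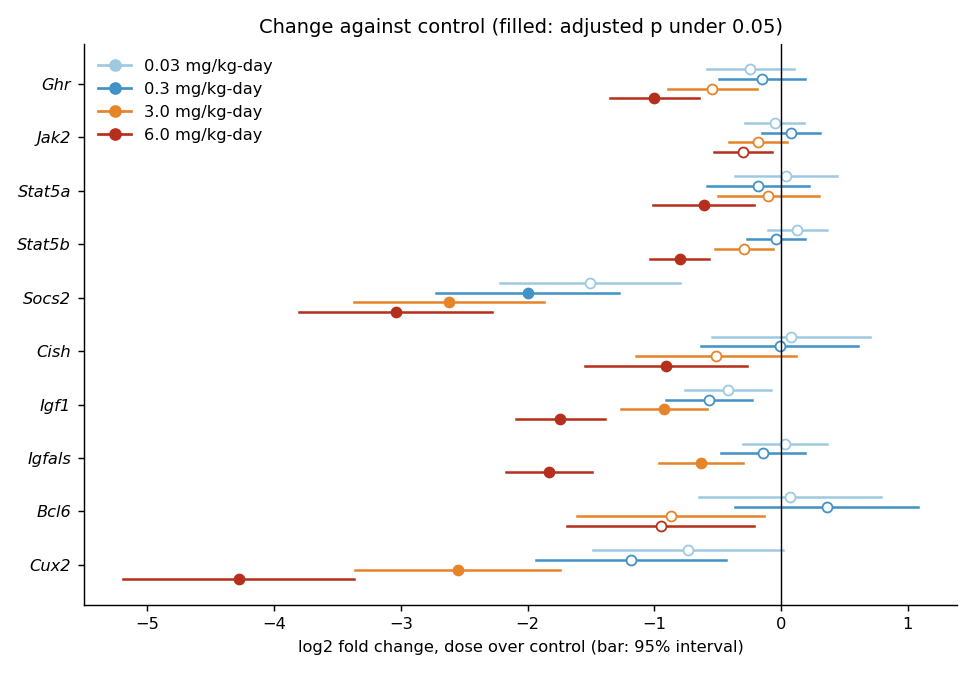
log2 fold change of each of the 10 genes at each dose over control (horizontal axis), with 95% intervals as bars and filled points where edgeR's adjusted p was under 0.05. The 6.0 mg/kg-day points lie furthest left for all 10 genes, from -0.30 for Jak2 to -4.28 for Cux2, and Socs2 is already at -1.51 at 0.03 mg/kg-day.

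Cux2 and Bcl6 encode repressors that shape the sex-biased programme of the liver. CUX2 is found mainly in female liver, where it holds down male-biased genes, and BCL6 is higher in male liver and competes with STAT5 for its binding sites. Cux2, at 5:121856366-122050102 on the minus strand, showed the largest fall of the 10 genes. Control livers had 32.2, 19.9, 31.1 and 17.6 CPM. Livers given 0.03 mg/kg-day had 15.4, 7.40, 21.6 and 16.2 CPM, and those given 0.3 mg/kg-day had 17.3, 6.54, 12.2 and 8.47 CPM. The first of these groups overlapped the controls. The second lay below them, with its highest value just under the lowest control and its mean at 44.1% of the control mean. Livers given 3.0 mg/kg-day had 6.15, 6.58, 2.76 and 1.74 CPM, and those given 6.0 mg/kg-day had 1.43, 1.11, 1.498 and 1.16 CPM. The values at 6.0 mg/kg-day rest on 21 to 26 counts per library, against 308 to 653 counts in control libraries.

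Cux2 fell by 2.55 ± 0.386 at 3.0 mg/kg-day (adjusted p = 0.00026, edgeR) and by 4.28 ± 0.437 at 6.0 mg/kg-day (adjusted p = 5.92e-07), where its mean was 5.15% of the control mean. The changes of -0.73 at 0.03 and -1.18 at 0.3 mg/kg-day did not pass, with adjusted p values of 1 and 0.227 in edgeR. Cux2, like Cish and Bcl6, is overlapped by annotated genes on the opposite strand whose reads were not analysed here.

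Bcl6, at 16:23965052-23988852 on the minus strand, did not follow a steady course. It averaged 14.8 ± 6.81, 15.6 ± 4.17, 19.0 ± 7.89, 8.11 ± 1.47 and 7.65 ± 4.19 CPM in the 5 groups from control up to the highest dose (SD, n = 4 each). Livers given 6.0 mg/kg-day had 7.09, 5.39, 13.7 and 4.41 CPM, against 24.6, 13.6, 11.4 and 9.36 CPM in controls. The highest treated value came from library 23, which stands apart, and it lay within the control range. The log2 change of -0.95 ± 0.356 had an adjusted p of 0.0597 in edgeR and did not pass. It was -1.40 without library 23 (0.00511), -1.12 without library 4 (0.0425), -1.49 without the libraries apart (0.00512), and it also passed with the term for those libraries (0.0261) and with DESeq2 (0.0385).

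The window at the second Bcl6 start is shown because it holds 3 STAT5 palindromes, the most of the 16 windows. They begin at positions -168, -122 and -88 from the start. The window covers 16:23981234-23981533 on the minus strand and is printed along that strand, with the palindromes in capitals.
Bcl6: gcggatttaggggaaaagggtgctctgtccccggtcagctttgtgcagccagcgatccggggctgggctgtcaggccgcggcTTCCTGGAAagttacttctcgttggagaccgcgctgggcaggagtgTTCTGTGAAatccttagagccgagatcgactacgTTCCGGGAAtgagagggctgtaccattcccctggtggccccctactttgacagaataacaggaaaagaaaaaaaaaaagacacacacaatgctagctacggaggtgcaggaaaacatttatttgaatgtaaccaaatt
The other Bcl6 window holds 1 palindrome, at position -118 from its start. The windows of Ghr, Jak2, Stat5a, Stat5b, Igf1 and Cux2 hold 0. By gene, 3 of the 9 matched genes have a window with the palindrome, beside 2582 of 27025 genes (9.55%) in the whole table. The 9 genes have 16 windows and the 27025 genes have 32851, so the 9 had more windows per gene in which to match.

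**Figure D3:**
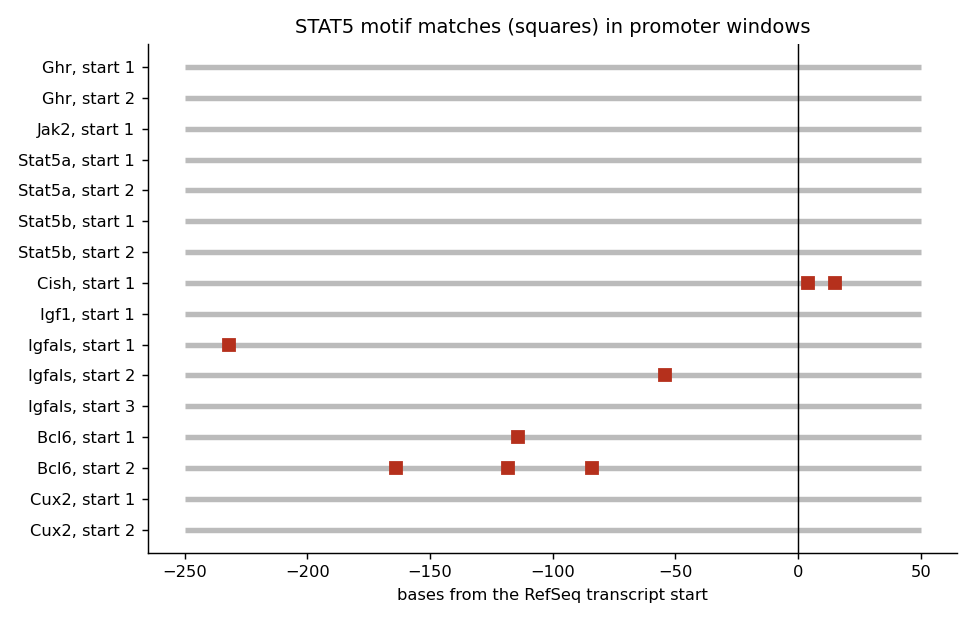
Positions of TTCNNNGAA palindromes (squares) in the 16 promoter windows of 9 of the genes, in bases from the RefSeq transcript start (horizontal axis). Squares appear in the Cish window after the start and in windows of Igfals and Bcl6 before the start, with 3 in the second Bcl6 window.

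The signalling genes Ghr, Jak2, Stat5a and Stat5b were set beside the other 6 genes, which include both repressors. The log2 CPM of each gene was taken relative to its control mean and averaged within each library over the 4 and over the 6. The mean over the signalling genes was 0.00 ± 0.09, -0.02 ± 0.09, -0.06 ± 0.06, -0.26 ± 0.06 and -0.67 ± 0.14 in the 5 groups from control up to the highest dose (SD, n = 4 each). The mean over the other 6 genes was 0.00 ± 0.20, -0.39 ± 0.15, -0.58 ± 0.30, -1.36 ± 0.47 and -2.10 ± 0.19. In each library the second mean minus the first was -0.31 to 0.15 in controls, -0.56 to -0.23 at 0.03, -0.80 to -0.11 at 0.3, -1.65 to -0.68 at 3.0 and -1.62 to -1.28 at 6.0 mg/kg-day. At both higher doses the libraries did not overlap the controls in this difference, while at both lower doses they did. Within the second group the genes were unequal, since Socs2, Igf1 and Cux2 had means under their control means at all 4 doses while Cish, Igfals and Bcl6 stood above theirs at 0.03 mg/kg-day. At 6.0 mg/kg-day the log2 changes were -4.28 for Cux2, -3.04 for Socs2, -1.83 for Igfals, -1.74 for Igf1, -0.95 for Bcl6 and -0.91 for Cish.

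**Figure D4:**
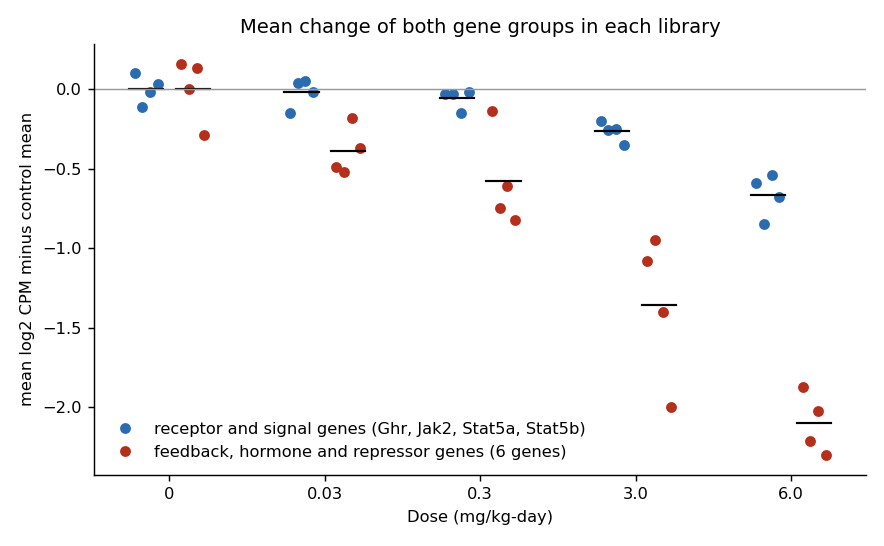
Mean log2 CPM relative to the control mean (vertical axis) of the 4 receptor and signal genes and of the 6 feedback, hormone and repressor genes in each library, by dose (horizontal axis), with lines at the group means. At 6.0 mg/kg-day the group means are -0.67 and -2.10.

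Between neighbouring doses, 4 of the 10 genes fell at 6.0 against 3.0 mg/kg-day, beside 1.06% lower and 1.03% higher of all genes. These were Stat5b (-0.50, adjusted p = 0.0204), Igf1 (-0.82, 0.00997), Igfals (-1.20, 0.00091) and Cux2 (-1.73, 0.0456), all by edgeR's quasi-likelihood test. Stat5b lost its call without library 17, 18, 22 or 24 (adjusted p up to 0.0764), Igf1 without 22 (0.051), and Cux2 without 17, 18, 21, 22 or 24 (up to 0.164) or with limma-voom (0.187). This count was 2 without library 17, 18 or 24, 1 without library 22, and 0 with only the groups of the comparison in the fit. With the term for the libraries apart it was 6 (4.61% of all genes lower), with Ghr (edgeR adjusted p = 0.00488) and Stat5a (0.0243) added. Without those libraries it was 5 (5.2% of all genes lower), with Ghr added (0.0179). At 3.0 against 0.3 mg/kg-day 0 of the 10 passed edgeR's test, with 7 at an unadjusted p under 0.05, 2 by DESeq2 and 0 by limma-voom. Of the 15197 genes tested, 0.862% were lower and 2.41% higher in that comparison, and 2502 had an unadjusted p under 0.05. All-gene counts by DESeq2 and limma-voom are not given for it. The comparison held 4 of the 10 with the term for the libraries apart (5.47% of all genes lower) and 2 without those libraries (2.29% lower). It held 1 without library 16 (Bcl6) or library 14, 17 or 18 (Cux2). At 0.3 against 0.03 mg/kg-day 0 of the 10 passed by edgeR, DESeq2 or limma-voom, and 0 had an unadjusted p under 0.05. Of all genes 0% were lower and 0.0197% higher there, and 510 had an unadjusted p under 0.05.

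Over the rank of the dose, all 10 genes fell by edgeR's test of the trend, beside 12.7% lower and 13.7% higher of all genes. The slopes per dose step were largest for Cux2 (-0.98 ± 0.104, adjusted p = 2.68e-07), Socs2 (-0.74 ± 0.0795, 3.51e-07), Igfals (-0.42 ± 0.0662, 4.79e-05) and Igf1 (-0.39 ± 0.0435, 4.77e-07). They were smallest for Jak2 (-0.07 ± 0.0272, adjusted p = 0.047) and Stat5a (-0.13 ± 0.0458, 0.0359). The calls of Jak2, Stat5a and Bcl6 did not hold without some single libraries. Jak2 lost its call without 1 of libraries 1, 4, 10, 11, 12, 13, 18, 19, 20, 21, 22 or 24 (up to 0.123), Stat5a without 1 of 1, 4, 10, 12, 21, 22, 23 or 24 (up to 0.0919), and Bcl6 without 1 of 1, 12, 18, 20, 21, 22 or 24 (up to 0.0962). With no filter on low counts Jak2 (0.0813) and Stat5a (0.0514) did not pass the trend, and Jak2 did not with RLE scaling (0.0613) or without the libraries apart (0.0687).

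Per kilobase of exon, the order at 6.0 mg/kg-day from highest to lowest mean level was Igf1 (33.5 CPM per kb), Ghr (26.4), Igfals (13.4), Stat5b (4.29), Jak2 (3.62), Bcl6 (1.14), Stat5a (0.981), Socs2 (0.719), Cish (0.666) and Cux2 (0.129). In controls it was Igf1 (112 CPM per kb), Ghr (52.7), Igfals (47.7), Stat5b (7.45), Socs2 (5.93), Jak2 (4.47), Cux2 (2.50), Bcl6 (2.20), Stat5a (1.49) and Cish (1.25). The first 4 places were the same. Socs2 held the eighth place at 6.0 mg/kg-day and the fifth in controls, and Cux2 held the tenth and the seventh. At 6.0 mg/kg-day the neighbours Igf1 and Ghr, Stat5b and Jak2, and those from Bcl6 down to Cish were closer to each other than their spread over mice (1 SD). In controls the same was so of Ghr and Igfals, Stat5b and Socs2, Socs2 and Jak2, and those from Cux2 down to Cish.

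Among the genes whose course over the 20 libraries was most like that of Igf1 were Avpr1a and Cutc. The likeness is the root mean square difference in centred log2 CPM, which was 0.167 and 0.198, beside a median of 0.695 over all genes. Avpr1a, which encodes a vasopressin receptor, averaged 16.8 CPM at 6.0 mg/kg-day and 46.7 CPM in controls. For Ghr the nearest were Car8 (0.0783), Heca (0.125) and D430042O09Rik (0.127), beside a median of 0.513. For Socs2 they were Apol10a (0.504), Rnf225 (0.572) and 5730420D15Rik (0.574), beside a median of 1.21, and these had control means of 0.891, 0.913 and 1.11 CPM, far less abundant than Socs2.

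A list of 33 other receptor partners, phosphatases, adaptors and liver factors around growth hormone signalling had 32 genes tested, of which 14 fell and 0 rose at the highest dose. Its median log2 change was -0.43, beside -0.02 over all genes. Of all genes, 11.2% fell and 11.2% rose at that dose, 1.43% and 3.18% at 3.0 mg/kg-day, and 0.151% and 0.138% at 0.3 mg/kg-day. An unadjusted p under 0.05 in edgeR was found for 565, 1301 and 2180 of the 15197 genes at 0.03, 0.3 and 3.0 mg/kg-day. These shares and counts are the ones to set beside each list below as well. Prlr, the prolactin receptor, fell most among those named by the smallest adjusted p, with 201 ± 37.6 CPM at 6.0 mg/kg-day and 572 ± 65.1 CPM in controls (SD, n = 4 each; log2 change -1.51, adjusted p = 9.38e-08, edgeR). Prlr was also the single gene of the list that fell at 3.0 mg/kg-day (-0.59, adjusted p = 0.00805). Stat3 fell by 0.73 as given above, Socs3, a feedback inhibitor of cytokine signalling, by 1.34 (0.00204), and Nr3c1, the glucocorticoid receptor that acts with STAT5 on Igf1, by 0.61 (0.00985). At 0.03 and 0.3 mg/kg-day edgeR passed 0 of the 32, with 1 and 2 at an unadjusted p under 0.05. One listed gene, Hnf4a, is also among the hepatocyte markers used here, of which 7 of 12 fell at the highest dose (median -0.60).

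In the IGF axis 13 of 14 listed genes had a row and 9 were tested, of which 2 fell and 0 rose at the highest dose (median -0.08). Igfbp4, a binding protein made in quantity by the liver, had 716.5 ± 149 CPM at 6.0 mg/kg-day and 1772 ± 310 CPM in controls (log2 change -1.31, adjusted p = 6.49e-05, edgeR). Igfbp1, a binding protein that insulin represses, had 4.51 ± 1.34 CPM and 12.1 ± 1.89 CPM in the same groups (-1.42, 0.00242). At the 3 lower doses edgeR passed 0 of the 9, with 1, 2 and 2 at an unadjusted p under 0.05 from low to high. Igfbp3, the partner of IGF1 and the acid-labile subunit in blood and named after its values were seen, had a log2 change of 0.18 (0.422) and did not pass.

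Genes that growth hormone sets higher in female liver were tested for 15 of 15 listed, and 10 fell and 3 rose at the highest dose (median -1.76). At 3.0 mg/kg-day 8 fell and 2 rose, at 0.3 mg/kg-day 3 fell, and at 0.03 mg/kg-day edgeR passed 0, with 5 at an unadjusted p under 0.05. Cyp2c40, a cytochrome P450 of female liver, had 37.9 ± 18.9 CPM at 6.0 mg/kg-day and 728.5 ± 169 CPM in controls (-4.26, adjusted p = 3.21e-08, edgeR). Cyp2c69 (-5.40) and Cyp3a16 (-3.56) were also among those with the smallest adjusted p. Near-identical relatives of the P450 genes make the split of reads among them uncertain. The 3 that rose, named after their values were seen, were Sult2a1, a sulfotransferase of steroids and bile acids (2.58), Cyp2b13 (0.82) and Hao2, a peroxisomal oxidase (0.61).

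Genes that growth hormone sets higher in male liver were divided, with 6 rising and 4 falling of 15 tested at 6.0 mg/kg-day and a median of 0.52. Cyp4a12a, a fatty acid hydroxylase of male liver, had 339 ± 146 CPM at 6.0 mg/kg-day and 1.39 ± 0.775 CPM in controls (log2 change 7.89, adjusted p = 1.11e-09, edgeR). Mup20, a major urinary protein, rose by 2.48 on the log2 scale, Gstp1, a glutathione transferase, by 1.98, and Cyp4a12b by 6.92. Cyp4a12b had 11.3 CPM at 6.0 mg/kg-day and 0.0798 CPM in controls, so low that its fitted change depends on the prior count. The 4 that fell, named after their values were seen, were Hsd3b5 (-3.86), Slco1a1 (-2.07), Nudt7 (-1.23) and Cyp7b1 (-0.54). Of the same 15, 6 rose and 1 fell at 3.0 mg/kg-day, and at 0.03 and 0.3 mg/kg-day edgeR passed 0, with 0 and 3 at an unadjusted p under 0.05. Beside these, 3.18% of all genes rose and 1.43% fell at 3.0 mg/kg-day. An unadjusted p under 0.05 was found for 565 and 1301 of the 15197 genes tested at 0.03 and 0.3 mg/kg-day.

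**Figure D5:**
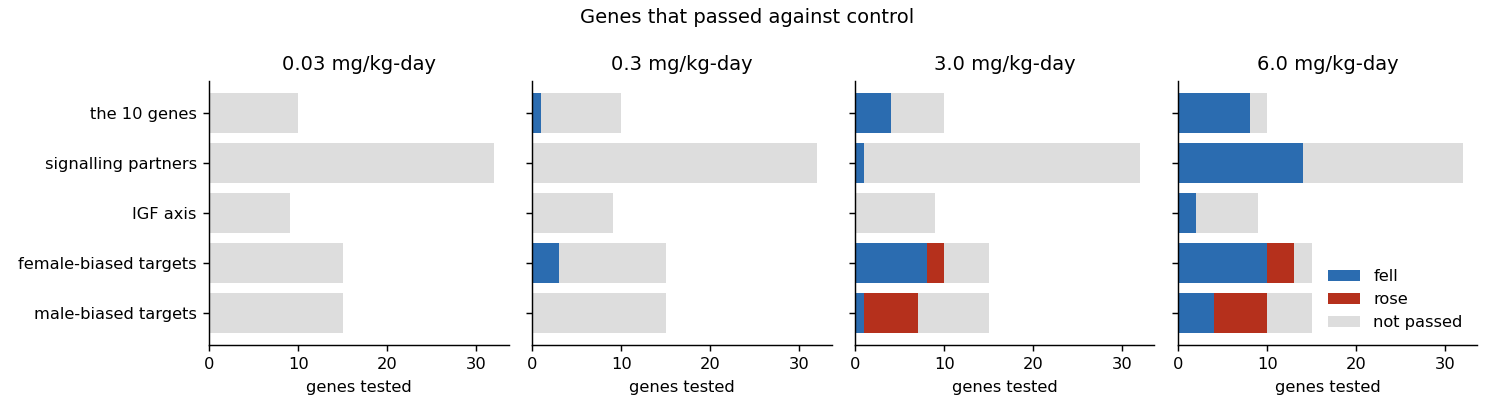
Number of genes that fell, rose or did not pass edgeR's test against control (horizontal axes) among the 10 genes and 4 related lists, with 1 panel per dose. The 10 genes and the female-biased list hold mostly falling genes at 6.0 mg/kg-day (8 of 10 and 10 of 15), while the male-biased list holds 6 that rose and 4 that fell.

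Markers of the other cell types a liver sample can hold were set beside these genes. At 6.0 mg/kg-day 11.2% of all genes fell and 11.2% rose, and 5248 of the 15197 tested had an unadjusted p under 0.05. These are the numbers to set beside the marker counts at that dose. There 3 of 8 stellate cell markers and 1 of 10 Kupffer cell markers fell, and 2 of 9 endothelial markers fell while 2 rose. Of T and NK cell markers 2 of 4 tested rose, with a summed level of 3.69 to 122 CPM (median 7.501) at 6.0 mg/kg-day, against 4.51 to 7.03 CPM in controls. Neutrophil and monocyte markers summed to 9.14 to 29.0 CPM at 6.0 mg/kg-day and to 5.23 to 6.93 CPM in controls, and 1 of 5 rose. Among erythroid markers 1 rose and 1 fell of 5, and edgeR passed 0 of 5 tested B cell markers and 0 of 5 tested cholangiocyte markers, with 0 and 2 at an unadjusted p under 0.05. The hepatocyte markers summed to 106426 to 147688 CPM at 3.0 mg/kg-day with 0 of 12 passing edgeR's test and 4 at an unadjusted p under 0.05. All 4 of these sums lay below the lowest control sum of 152638 CPM, and the median log2 change of the 12 markers was -0.30. Over all genes at 3.0 mg/kg-day 1.43% fell and 3.18% rose, and 2180 of the 15197 tested had an unadjusted p under 0.05. Alb, the largest part of the sums, averaged 87898.5 CPM at 3.0 mg/kg-day and 126657 CPM in controls. The part of hepatocyte content in the falls at either dose was not tested.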

How the data were processed

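Liver RNA was sequenced from 20 mice, 1 library per mouse run over 4 lanes. The deposited table holds the authors' expected counts per gene, a unit read from the values, of which 59.2% are whole. Partek and GRCm38.p5 are named per the submitters' processing notes. Not given in the sources used here: aligner, counting method, annotation and strand use. The counts were rounded, filterByExpr removed low rows (15197 of 22103 kept), and libraries were scaled with TMM. The table has 21 rows with date-like names, which were kept.

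Genes were tested by quasi-likelihood in edgeR 4.0.16 (R 4.3.3), in 1 fit of all 20 libraries with 15 residual degrees of freedom, each dose against control and between neighbouring doses. A second fit took the rank of the dose. P-values were adjusted over all genes by Benjamini-Hochberg, with a threshold of 0.05. They judge each change against the spread between these mice, which was estimated over all groups and with information shared across genes. The common biological coefficient of variation was 0.219. The SE is the absolute log2 change divided by the square root of F.

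Gene positions come from GENCODE M21 (GRCm38), where 20992 of 22101 row names (95.0%) are a symbol, and promoter windows from RefSeq (GRCm38.p6). DESeq2 1.42.0, limma-voom (limma 3.58.1), RLE scaling, no filter, other sample sets and each library left out were alternatives. The 10 genes and the lists were chosen with earlier results of these data known. Named beside the 10 were up to 4 genes per pathway list, those of smallest adjusted p at the highest dose, and the 3 genes most like Igf1, Socs2 and Ghr, of which some are not reported here.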

Additional observations from a re-analysis of the deposited data

Results flagged for a closer look

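For each of the 10 genes in each of the 5 groups, the gap between the outermost library and its nearest neighbour was divided by the range of the 4, and 4 of the 50 sets lay above Dixon's 95% critical value for 4 samples. Chance alone gives about 1 in 20. Ghr at 0.03 mg/kg-day had 526 CPM in library 11 and 351 to 377 CPM in the other 3 (gap over range 0.853). Igfals at 0.3 mg/kg-day had 166 CPM in library 15 and 122 to 129 CPM in the other 3 (0.839). Libraries 11 and 15 are those of their groups that stand apart over all genes. Igf1 at 6.0 mg/kg-day had 466 CPM in library 21 and 274 to 297 CPM in the other 3 (0.879). Cish at 6.0 mg/kg-day had 5.51 CPM in library 24 and 3.79 to 3.98 CPM in the other 3 (0.894).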

How the results depend on the processing

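No log2 change of the 10 genes against control changed sign where it had passed. Over 40 gene and dose pairs and all alternatives, 562 values kept their side of the threshold, 23 lost it and 15 gained it. No paired analysis was possible because the labels give the groups no shared replicate numbers, and the order of libraries within a group pairs no mice.

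The number of the 10 genes that passed at 0.03 mg/kg-day was 1 with DESeq2, not 0. At 6.0 against 3.0 mg/kg-day it was 0, not 4, with only the groups of the comparison in the fit. There it was 6 with a term for the apart libraries and 5 without them. At 3.0 against 0.3 mg/kg-day it was 2 with DESeq2, 1 with only those groups, 4 with a term for the apart libraries and 2 without them, not 0. Leaving out each library gave 0 to 0, 0 to 1, 3 to 4 and 6 to 8 at the 4 doses from low to high, 1 to 4 at 6.0 against 3.0, 0 to 1 at 3.0 against 0.3, 0 to 0 at 0.3 against 0.03 mg/kg-day and 7 to 10 for the trend.

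Of all genes, 0 passed at 0.03 mg/kg-day by edgeR (565 at an unadjusted p under 0.05), 10 with DESeq2, 1 with RLE scaling, 1 with limma-voom, 13 with a term for the apart libraries and 2 without them. At 0.3 mg/kg-day 44 passed, 186 with DESeq2, 306 with that term and 158 without those libraries. At 3.0 mg/kg-day it was 701, and 1393 with the term. At 6.0 mg/kg-day it was 3405, with 1726 in the fit of only those groups, 5639 with the term and 5228 without those libraries. Leaving out each library gave 0 to 1, 12 to 51, 451 to 681 and 2346 to 4653.
The cause of these differences was not tested, though fewer samples enter the smaller fits. RLE scaling moved the median change of all genes by no more than 0.02. Depth limits Cux2 at 6.0 mg/kg-day (21 to 26 counts) and Cish (53 to 216 counts over all libraries).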
